A study of Mus musculus with 17 samples.

Results

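The Tox family has 4 members in the mouse, Tox, Tox2, Tox3 and Tox4, and all 4 had a probe set of their own among the 22180 genes measured. The members were taken by gene symbol from the array annotation, with probe set 17423107 for Tox, 17379229 for Tox2, 17511550 for Tox3 and 17299750 for Tox4. The study hybridised RNA of 9 sorted populations to 17 arrays of the Affymetrix Mouse Gene 2.0 ST type. From bone marrow, 13 arrays held stem cells (HSC), multipotent progenitors primed for the lymphoid fate (LMPP), common myeloid progenitors sorted by Flt3 (flt3+ CMP and flt3- CMP), common lymphoid progenitors (CLP), early innate lymphoid progenitors (EILP) and NK cells, that is, natural killer cells. The remaining 4 arrays, from thymus, held the earliest progenitors (ETP) and the later DN3 cells of the T lineage. Each population had 2 arrays, except EILP, which had 1. Per the labels, marrow from TCF-1 GFP reporter donors had been given to CD45-congenic B6 CD45.1 recipients irradiated with 900 rads, and cells were pooled from these chimeras after 12 weeks. That account names every population but NK, and gives no age. All the populations it names come from reporter donors, so they share the reporter allele and the chimeric host.

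Proteins of the Tox family share a single HMG box, a DNA-binding fold that bends DNA and is also found in TCF-1, Lef1 and the Sox factors. Tox itself is required for the development of innate lymphoid cells and NK cells from marrow progenitors and for CD4 T cells in the thymus, and is also known from exhausted T cells, where it lies downstream of calcineurin and NFAT. Tox2 is expressed in NK cells and follicular helper T cells, Tox3 is best known from neurons and breast epithelium, and Tox4 is a broadly expressed subunit of a phosphatase complex with PP1.

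Replicates of a population correlated across genes at 0.9734 (ETP) to 0.9901 (flt3- CMP), and the median log2 value of an array ranged from 4.45 to 4.62. The labels do not say whether replicates were separate pools of animals. The p-values therefore cover the spread between these samples, which may be technical, and so few arrays limit their precision. The labels were checked against marker genes. The HSC, LMPP, CLP, NK, ETP and DN3 marker lists each had their highest mean in the population of that name, and the CMP list in flt3- CMP, at 7.33, with flt3+ CMP at 6.75 below EILP at 6.79. Single markers separated some populations less well: 4 of 5 CLP markers and 4 of 6 ETP markers were highest in DN3, with 1 each highest in the population of that name, and 1 of 4 LMPP markers was highest in LMPP. All 5 HSC, all 8 NK and all 6 DN3 markers were highest in their own population. Of 9 innate lymphoid cell markers measured, only 1 was highest in EILP. By contrast, 7 of 10 neutrophil and 6 of 8 macrophage markers were highest in EILP, with means of 11.38 and 6.38, the highest of all populations. The neutrophil mean was 9.82 to 11.38 in the marrow populations, 5.34 in ETP and 4.42 in DN3. The mean of 3 Y-linked transcripts was 7.03 to 7.66 in the 5 CLP, EILP and DN3 arrays and 3.03 to 3.38 in the other 12, so a comparison across these sides also compares pools that differ in sex-linked transcripts, and there the 2 cannot be told apart. In a pool, fewer Tox-expressing cells and less Tox RNA per cell cannot be told apart either. Log2 values of different probe sets are not on a common scale, so levels are compared between populations, not between the 4 genes.

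Tox had the widest range of the 4 members. Its values were 8.21 and 8.39 in DN3, 8.60 and 7.66 in ETP, 7.25 in EILP and 7.23 and 6.91 in NK. They were 6.75 and 6.36 in LMPP, 6.30 and 6.17 in HSC, 5.22 and 5.27 in flt3+ CMP, 4.79 and 4.67 in flt3- CMP and 4.51 and 4.79 in CLP. The 4 thymus arrays thus lay above all 13 marrow arrays, and the CMP and CLP arrays lay below all others. The 4.51 of CLP was the only Tox value below the median of all values, 4.54, which lies near the dim end of the table, so the size of differences against CLP and flt3- CMP is uncertain and may be understated. Tox2 ran from 5.44 in an HSC array to 6.03 in an ETP array with a median of 5.79, Tox3 from 3.87 in LMPP to 4.93 in DN3 with a median of 4.09, and Tox4 from 6.18 in ETP to 7.20 in HSC with a median of 6.68. The population means of Tox spanned 3.65 log2 units, a span exceeded by 332 of 22180 genes. Those of Tox2, Tox3 and Tox4 spanned 0.55, 0.80 and 0.59, beside a median span of 0.63 over all genes.

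**Figure D1:**
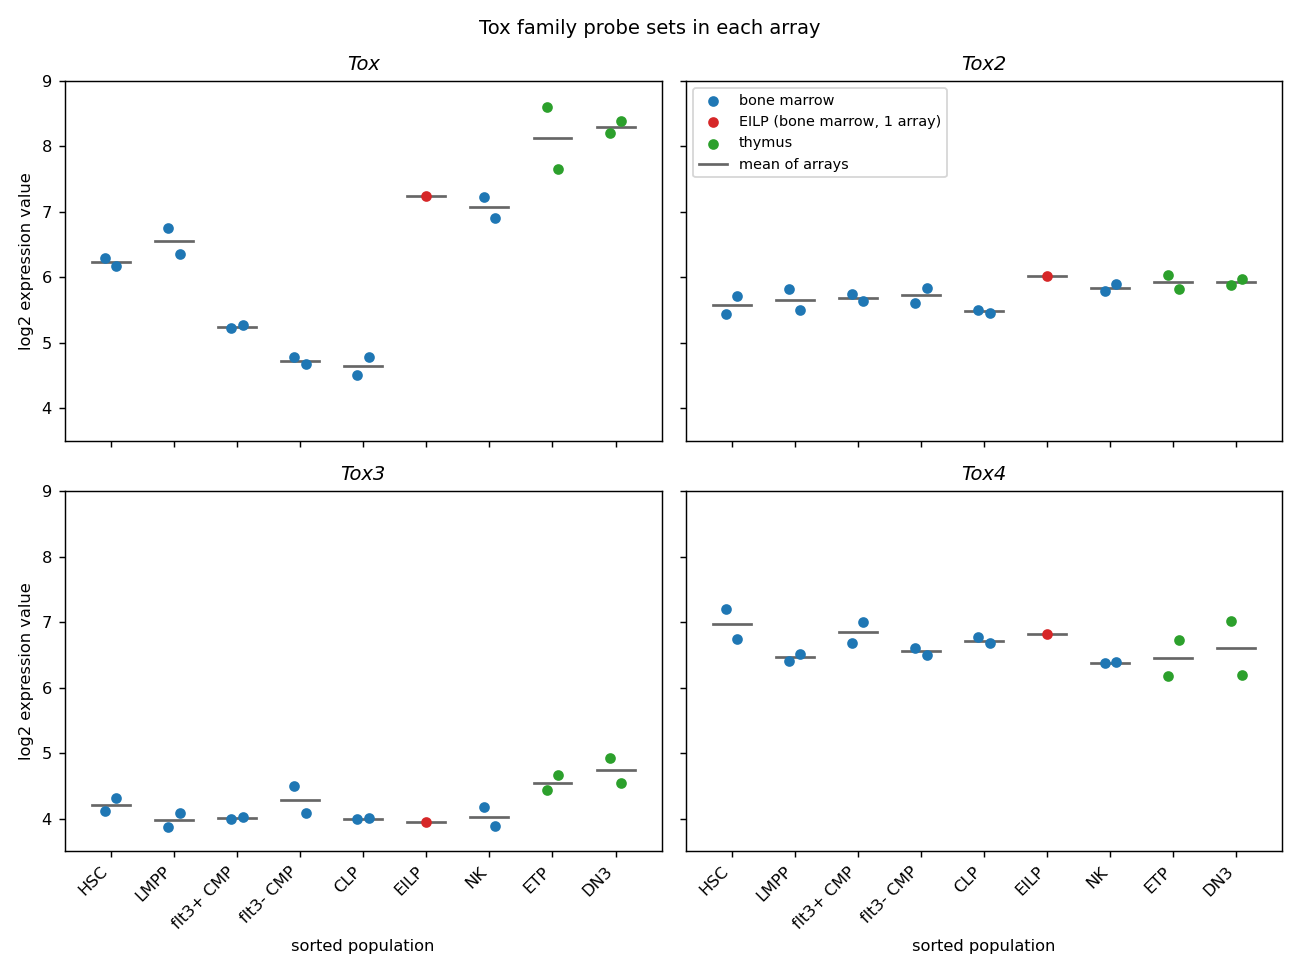
Log2 expression value of the Tox, Tox2, Tox3 and Tox4 probe sets in each array (points) by sorted population, with the population mean as a grey line. Tox runs from 4.51 in a CLP array to 8.60 in an ETP array, while the population means of Tox2 and Tox4 span 0.55 and 0.59 log2 units; levels of different panels are not comparable.

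A linear model with 1 mean per population (limma, all 17 arrays) was used to ask whether the means differed, with p-values adjusted by Benjamini-Hochberg over all genes. In the F test over the 9 populations, 22.7% of all genes passed an adjusted p of 0.05, and of the 4 members Tox (limma adjusted p = 4.9e-07) and Tox3 (limma adjusted p = 0.043) did. Tox2 (limma adjusted p = 0.24) and Tox4 (limma adjusted p = 0.54) did not. The Tox3 call was lost when any HSC, LMPP, flt3+ CMP or CLP array, ETP replicate 2 or DN3 replicate 1 was left out, with limma adjusted p up to 0.14.

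The order of Tox means was DN3 8.30, ETP 8.13, EILP 7.25, NK 7.07, LMPP 6.56, HSC 6.24, flt3+ CMP 5.24, flt3- CMP 4.73 and CLP 4.65. No pair of neighbours in this order passed the test. The widest steps between neighbours were those from HSC to flt3+ CMP, of 0.99 ± 0.25 (SE, limma adjusted p = 0.069), and from ETP to EILP, of 0.88 ± 0.31 (limma adjusted p = 0.11). Wider spacings did pass. Of the 36 pairs of populations, Tox was called in 24, where over all genes and pairs 6.53% were called. The 12 pairs not called were the 8 pairs of neighbours, EILP with LMPP and with HSC, NK with HSC, and CLP with flt3+ CMP. Because the 36 pairs reuse the same 17 arrays, they are not independent comparisons.

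**Figure D2:**
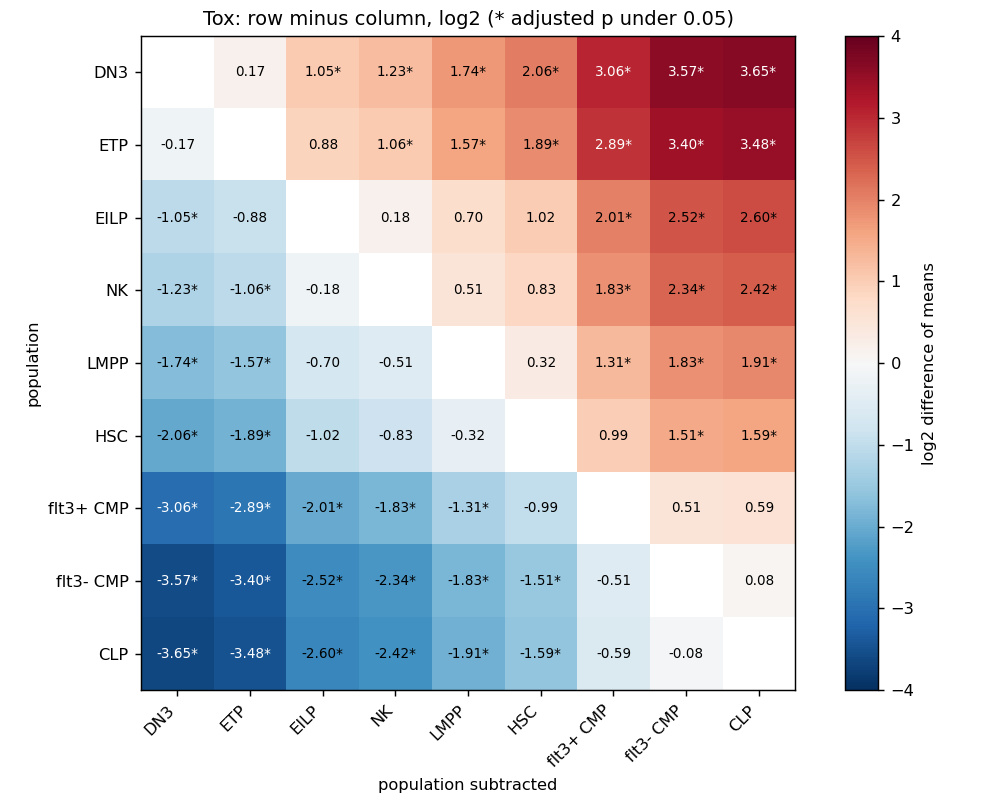
Difference of Tox population means, row minus column on the log2 scale, with populations ordered by their Tox mean and an asterisk where the limma adjusted p was under 0.05. The 12 cells without an asterisk on each side of the diagonal lie next to it or close to it, and the DN3 minus CLP cell is the largest at 3.65.

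The comparisons of EILP with each other population ask where the progenitor pool labelled EILP stands, and all 8 share its single array, whose spread the model borrows from the replicated populations. Tox was higher in EILP than in CLP by 2.60 ± 0.31 (log2, SE, 1 array against 2, 95% interval 1.94 to 3.27, limma adjusted p = 0.0014). That is a 6.07-fold difference, in a comparison in which 0.365% of all genes were called, and 1 called gene had a larger rise. It was higher than in flt3- CMP by 2.52 ± 0.31 (limma adjusted p = 0.0003), where 7.14% of all genes were called, and than in flt3+ CMP by 2.01 ± 0.31 (limma adjusted p = 0.0019), where 4.47% were. In none of these 3 comparisons was the call lost when an array of another population was left out or the scaling was changed. The EILP array could not be left out, because it is the only 1 of its population. The difference from CLP was 2.60 (limma adjusted p = 0.012) when the fit was limited to the 5 arrays on their side of the sex-linked split. EILP and both CMP populations lie on different sides of it.

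EILP stood close to NK in Tox, with a difference of 0.18 ± 0.31 (95% interval -0.48 to 0.85, limma adjusted p = 0.86), against a background of 3.48% of genes called. The interval leaves room for a difference of up to 0.85 log2 units. EILP was above LMPP by 0.70 ± 0.31 (limma adjusted p = 0.31, background 3.90%) and above HSC by 1.02 ± 0.31 (limma adjusted p = 0.085, background 5.05%), neither of which passed. The difference from HSC did pass, at the same 1.02, with only the bone marrow arrays in the fit (limma adjusted p = 0.021) or without either ETP array (limma adjusted p = 0.015). Relative to the thymus, Tox in EILP differed from DN3 by -1.05 ± 0.31 (limma adjusted p = 0.047, background 10.2%), and the difference from ETP was -0.88 ± 0.31 (limma adjusted p = 0.11, background 8.19%). The DN3 call was lost when any of the 12 HSC, LMPP, CMP, CLP or DN3 arrays was left out, with limma adjusted p up to 0.17. Without ETP replicate 2, the lower of the ETP arrays, the ETP difference was -1.35 (limma adjusted p = 0.0052), and without replicate 1 it was -0.40 (limma adjusted p = 0.4).

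**Figure D3:**
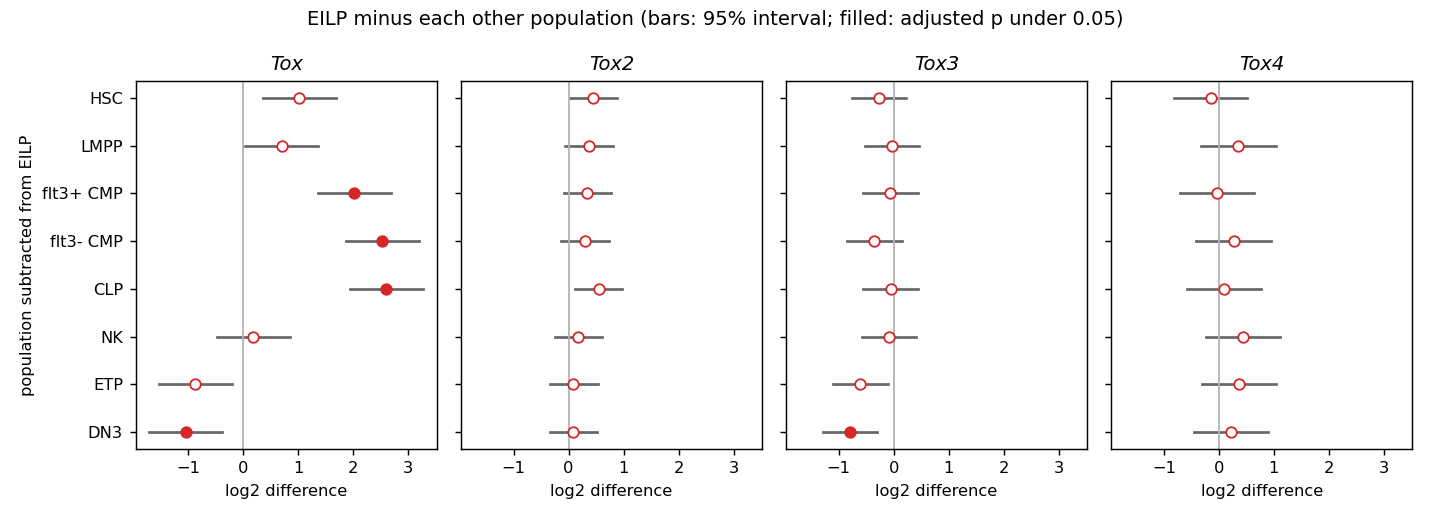
EILP minus each other population on the log2 scale for the 4 members, with 95% intervals from the limma fit as bars and filled points where the adjusted p was under 0.05. Tox has 4 filled points, with flt3+ CMP, flt3- CMP and CLP to the right of 0 and DN3 to the left, Tox3 has 1 (DN3), and Tox2 and Tox4 have none.

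Markers of other cells were set beside these differences. Of 10 mature T cell markers none was called between EILP and CLP by limma, and 4 were higher at an unadjusted p under 0.05. The share of all genes at that unadjusted cutoff is not given, so counts at it, here and below, have no background beside them. Their mean was 4.20 in EILP, 3.79 to 3.89 in the CLP arrays, 4.50 to 4.64 in the ETP arrays and 7.43 to 7.54 in the DN3 arrays. In EILP 8 of the 10 lay below the median of all values, and Cd3d and Cd6 lay above it. Of the CD3 chains of the T cell receptor complex, Cd3e and Cd3d stood at 3.35 and 5.42 in EILP against 3.42 and 5.48 in CLP, and Cd3g at 4.18 against 3.26. Trat1 stood at 4.39 against 3.30, Themis at 3.68 against 3.17, Cd4 at 4.28 against 3.82 and Cd8a at 3.86 against 3.76. Of 8 NK cell markers none was called between EILP and CLP and 5 were higher at an unadjusted p under 0.05, with a mean of 4.75 in EILP, 4.36 to 4.37 in CLP and 8.97 to 9.29 in NK. Il2rb stood at 4.92 in EILP and 3.83 in CLP. Ncr1 stood at 5.67 in EILP, 4.95 in CLP and 11.15 in NK, and Klrb1c at 4.28, 3.65 and 8.41. Eomes, a defining factor of NK cells, stood at 3.89, 3.55 and 8.96, and Klrd1 at 5.74, 6.47 and 11.07. Of 10 neutrophil markers none was called between EILP and CLP, nor at an unadjusted p under 0.05, with means of 11.38 and 11.15 to 11.33. Against flt3+ CMP and flt3- CMP, 6 and 7 of these 10 were higher in EILP, as were 4 and 5 of 8 macrophage markers and 2 and 1 of 4 red cell markers. Against DN3, all 10 neutrophil, 6 of 8 macrophage and 3 of 4 red cell markers were higher in EILP and 7 of 10 mature T cell markers were lower. Against HSC, LMPP and ETP, 4, 3 and 9 neutrophil, 4, 5 and 4 macrophage and 2, 2 and 3 red cell markers were higher. None of these was lower, and 1 mature T cell marker was higher against HSC. Against NK, 1 neutrophil and 3 macrophage markers were higher and 2 mature T cell markers lower. The shares of all genes called in these comparisons are given above. The part of these other cells in the Tox differences was not tested beyond these values.

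Along the steps between the other populations, Tox fell from LMPP to CLP and rose from LMPP to ETP. CLP minus LMPP was -1.91 ± 0.25 (limma adjusted p = 0.00046, background 5.96%), a 3.75-fold difference. ETP was higher than LMPP by 1.57 ± 0.25 (limma adjusted p = 0.0022, background 3.42%), a 2.97-fold difference. The ETP replicates were 0.95 apart, the widest replicate gap of Tox, and the difference from LMPP was 1.10 to 2.05 over the arrays left out, with the call kept. NK was higher than CLP by 2.42 ± 0.25 (limma adjusted p = 4.3e-05, background 6.39%), or 5.34-fold. The comparison of ETP with LMPP lies within 1 side of the sex-linked split, and was 1.57 (limma adjusted p = 0.0072) with the arrays of that side alone. The comparisons of CLP with LMPP and with NK cross it. In ETP against LMPP, 9 of 10 neutrophil, 2 of 8 macrophage and 1 of 4 red cell markers were lower and 4 of 10 mature T cell markers were higher. In CLP against LMPP, 4 of 10 neutrophil, 4 of 8 macrophage, 2 of 4 red cell and 3 of 8 mature B cell markers were higher and no mature T cell marker was called by limma, with 2 lower at an unadjusted p under 0.05. In NK against CLP, 3 of 10 mature T cell markers were higher and none lower. Cd3d stood at 8.13 in NK and 5.48 in CLP, Cd3g at 7.67 and 3.26, and Cd3e at 4.50 and 3.42. Cd4 stood at 4.07 and 3.82, Cd5 at 4.46 and 4.31, Trat1 at 3.46 and 3.30 and Themis at 3.16 and 3.17. In NK 7 of the 10 lay below the median of all values. Also in NK against CLP, 2 of 10 neutrophil markers were lower (5 at an unadjusted p under 0.05), as were 3 of 8 macrophage markers and 2 of 8 mature B cell markers, and 1 mature B cell marker was higher. The part of these markers in the Tox differences was not tested.

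The other steps gave no call for Tox. LMPP minus HSC was 0.32 ± 0.25 (95% interval -0.22 to 0.86, background 0.600%). The flt3+ CMP minus flt3- CMP difference was 0.51 ± 0.25 (95% interval -0.03 to 1.05, background 0.108%). NK minus LMPP was 0.51 ± 0.25 (95% interval -0.03 to 1.06, background 6.72%). DN3 minus ETP was 0.17 ± 0.25 (95% interval -0.37 to 0.72, background 8.73%), with the DN3 arrays between those of ETP. Of the 15 comparisons described, Tox was called in 7, Tox3 in 1 and Tox2 and Tox4 in none.

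Tox2, which acts in NK cells and follicular helper T cells, had its highest mean in EILP, at 6.02, and its lowest in CLP, at 5.48 ± 0.03 (SD, n = 2). Its CLP values were 5.50 and 5.46, those of NK 5.79 and 5.90, those of ETP 6.03 and 5.83 and those of DN3 5.88 and 5.98. The EILP minus CLP difference was 0.55 ± 0.20 (95% interval 0.12 to 0.98, limma adjusted p = 0.43, with an unadjusted p of 0.017 in the same fit). None of the 36 pairs passed in limma, and 7 had an unadjusted p under 0.05, 4 of them against CLP and 3 against HSC. In EILP minus NK the interval ran from -0.25 to 0.61. Over the 9 population means, which come from the same arrays for all genes, Tox had a Pearson correlation of 0.78 with Tox2. It was 0.55 with Tox3 and -0.34 with Tox4. Over the 17 arrays these were 0.70, 0.52 and -0.32, and none carries a test.

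Tox3, a member known from neurons and breast epithelium, was dim throughout, with 14 of its 17 values below the median of all values. The 3 values above it were 4.93 and 4.55 in DN3 and 4.67 in an ETP array, and the other ETP array was at 4.44. Marrow values ran from 3.87 to 4.49, so the lower ETP array lay within the marrow range and both DN3 arrays above it. Tox3 was called in 5 of the 36 pairs, all with DN3 as the higher side, where over all genes and pairs 6.53% were called. In these 5 pairs 1329 (flt3+ CMP) to 2782 (NK) of 22180 genes were called, with 10.2% in EILP minus DN3. The Tox3 differences were 0.71 in DN3 minus NK to 0.76 in DN3 minus LMPP, and largest against EILP. EILP minus DN3 was -0.80 ± 0.23 (limma adjusted p = 0.042), and this call was lost when any HSC, LMPP, flt3+ CMP or CLP array or DN3 replicate 1 was left out, the last giving -0.61 (limma adjusted p = 0.2). EILP minus CLP was -0.05 ± 0.23 (95% interval -0.55 to 0.44). At this level a difference between dim values may be understated.

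Tox4, the subunit of the PP1 phosphatase complex, had means from 6.38 in NK to 6.97 in HSC. Replicates of DN3 were 7.02 and 6.19 and those of ETP 6.18 and 6.73, and the DN3 gap of 0.83 was wider than the 0.59 span of the population means. None of the 36 pairs passed in limma and 1 had an unadjusted p under 0.05. EILP minus CLP was 0.10 ± 0.31 (95% interval -0.58 to 0.77). A further probe set is annotated to both Mettl3 and Tox4 and was left out. Its values, 6.95 to 8.10, had a Pearson correlation of 0.05 over the 17 arrays with those of the probe set of Tox4 alone. The other 5 genes of the complex are Ppp1r10, Wdr82 and the PP1 catalytic genes Ppp1ca, Ppp1cb and Ppp1cc. None was called by limma in the 7 comparisons in which a family member passed. Over all genes 0.365% to 10.2% were called there, so this count says little about a list of 5. At an unadjusted p under 0.05, 1 was lower in EILP minus flt3- CMP, 1 was lower in EILP minus DN3 and 1 was higher in CLP minus LMPP. In NK minus LMPP and in DN3 minus ETP, where no family member passed, 1 of the 5 was called higher by limma (6.72% and 8.73% over all genes).

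For 14 measured transcription factors of innate lymphoid development, calls were set beside the share over all genes. In EILP minus CLP 1 was higher and 1 lower (0.365% over all genes), and in EILP minus flt3+ CMP 2 were higher (4.47%). In EILP minus flt3- CMP and in CLP minus LMPP 3 were higher and 1 lower (7.14% and 5.96%). The shares over all genes were 10.2% in EILP minus DN3, 6.39% in NK minus CLP and 3.42% in ETP minus LMPP. The list was chosen with earlier results of these data known, so these counts carry no test. These shares are at the adjusted p and are no background for the counts at an unadjusted p that follow. Ikzf2, an Ikaros family factor, rose with Tox between CLP and EILP, by 1.98 ± 0.26, and Lef1, an HMG box partner of beta-catenin, fell, at -3.05 ± 0.28. At an unadjusted p under 0.05, 6 of the 14 were higher and 2 lower, and the median difference of the list was 0.53, against 0.05 over all genes. Nfil3, needed for innate lymphoid and NK cell development, differed there by 1.19 ± 0.33 (limma adjusted p = 0.22) and Zbtb16, which encodes PLZF of innate lymphoid precursors, by 1.31 ± 0.35 (limma adjusted p = 0.21). Against flt3+ CMP, 2 of 14 rose, Id2, an inhibitor of E proteins, by 2.74 and Ets1 by 0.99, with 6 higher and 1 lower at an unadjusted p under 0.05 and a list median of 0.66 against -0.01 over all genes. Against flt3- CMP, Id2 at 2.99, Nfil3 at 1.48 and Rora at 0.66 rose and Ikzf2 fell, at -1.11, with 4 higher and 1 lower at an unadjusted p under 0.05 and a median of 0.50 against -0.02.

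Against DN3, where Tox was lower in EILP, 3 of the 14 factors were higher and 5 lower in EILP, with a median of -0.26 against -0.04 over all genes. Id2 at 2.46, Nfil3 at 1.87 and Zbtb16 at 1.42 were higher. The T lineage factor Bcl11b at -4.07, Lef1 at -4.37, Ahr at -2.97, Ets1 at -1.81 and Ikzf2 at -1.69 were lower. From LMPP to CLP, Ikzf2 fell with Tox, at -3.09 ± 0.21, while Lef1 rose by 3.26, Id2 by 1.42 and Ets1 by 0.73, with a median of -0.14 against -0.05. In NK minus CLP, 8 of 14 were higher and none lower (none lower at an unadjusted p under 0.05 either), with a median of 0.98 against 0.09. The T-box factors Eomes at 5.42 and Tbx21 at 2.66, then Maf at 2.65, Id2 at 2.42, Ikzf2 at 2.13, Runx3 at 1.13, Rora at 0.94 and Ets1 at 0.85 made up the 8. Centring the arrays moved the median of all genes in that comparison by -0.15. In ETP minus LMPP none of the 14 passed in limma, with 5 higher and 2 lower at an unadjusted p under 0.05 and a median of 0.19 against 0.04.

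**Figure D4:**
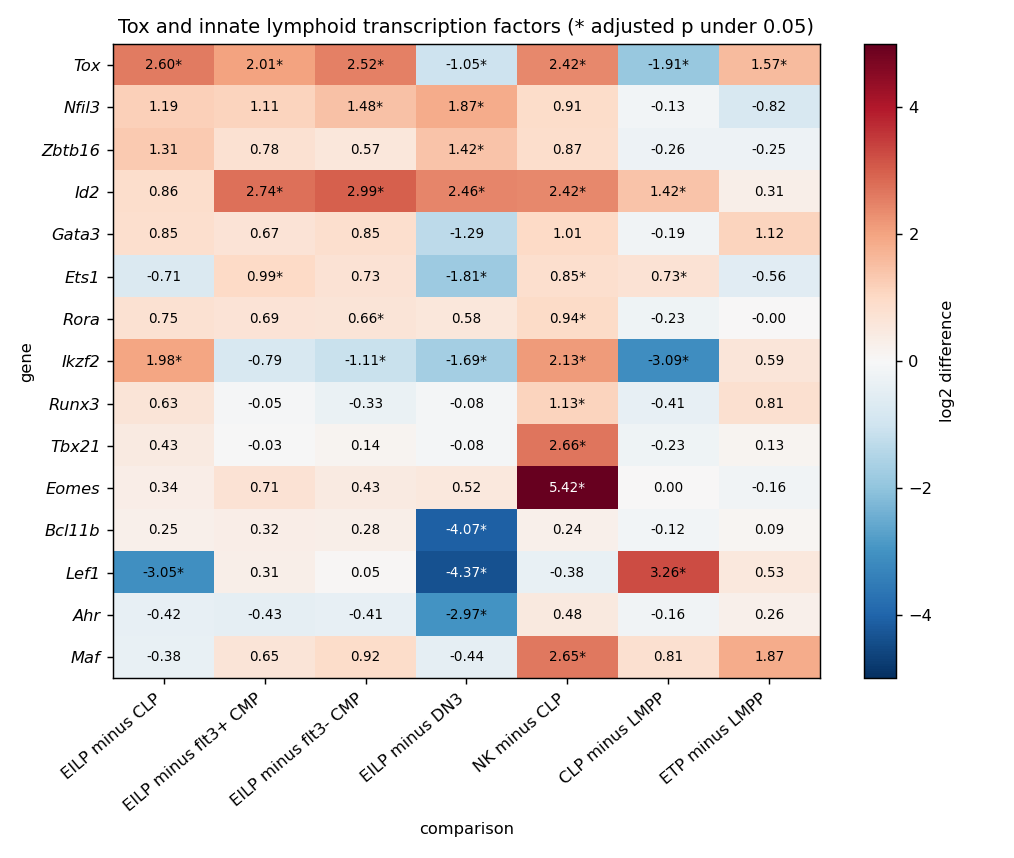
Log2 differences of Tox and of 14 innate lymphoid transcription factors in the 7 comparisons in which a Tox family member passed, with an asterisk where the limma adjusted p was under 0.05. Ikzf2 moves with Tox in EILP minus CLP (1.98), NK minus CLP (2.13) and CLP minus LMPP (-3.09), which share the same 2 CLP arrays, and in EILP minus DN3 (-1.69), and against it in EILP minus flt3- CMP (-1.11).

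Genes of the calcineurin and NFAT route, which acts upstream of Tox in activated T cells, had 0 of 16 called by limma in EILP minus CLP, minus flt3+ CMP and minus flt3- CMP. Over all genes 0.365%, 4.47% and 7.14% were called there, so counts this low say little about a list of 16. At an unadjusted p under 0.05, 0, 2 and 2 were higher and 2, 0 and 1 lower, and the list medians were -0.06, 0.22 and 0.10 against 0.05, -0.01 and -0.02 over all genes. Between EILP and DN3, Ppp3ca, a calcineurin catalytic subunit gene, was higher in EILP by 1.42 and Ppp3cc, another, was lower, at -1.18, with a median of -0.09 against -0.04. In NK minus CLP 6 rose, Ppp3cc by 2.32, Nr4a2 by 1.87, Egr1 by 1.74, Nr4a3 by 1.61, Egr2 by 0.91 and Nfatc3 by 0.71, and Irf4 was at -1.06, with a median of 0.69 against 0.09. From LMPP, Ppp3cc was higher in CLP by 1.03 and in ETP by 1.54, and Irf4 was higher in CLP by 1.39. The medians of these 2 comparisons, -0.07 and -0.04, lay beside -0.05 and 0.04 over all genes. The shares of all genes called were 10.2% in EILP minus DN3 and 6.39% in NK minus CLP. They were 5.96% in CLP minus LMPP and 3.42% in ETP minus LMPP.

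Inhibitory receptor genes, which accompany Tox in exhausted T cells, had 0 of 8 called by limma in EILP minus CLP, where 0.365% of all genes were called, so this count says little about a list of 8. None passed at an unadjusted p under 0.05, and the median was 0.04 against 0.05. Against flt3+ CMP none was called by limma and 1 was higher at an unadjusted p under 0.05, and against flt3- CMP Entpd1, the ectoenzyme CD39, rose by 1.38, with medians of 0.19 and 0.29 against -0.01 and -0.02. Between EILP and DN3, Cd244a at 2.14 and Entpd1 at 1.63 were higher, and Ctla4 at -3.27 and Pdcd1, the gene of PD-1, at -1.29 were lower in EILP, with a median of -0.14 against -0.04. In NK minus CLP, Tigit at 4.40, Cd160 at 1.74 and Cd244a at 1.69 were higher and Entpd1 at -0.87 lower, with a median of 0.08 against 0.09. Lag3, a receptor for MHC class II, fell from LMPP to CLP, at -0.86, and was higher by 0.88 in ETP than in LMPP, so that this 1 receptor gene passed in the same direction as Tox in both. The medians there were -0.16 and 0.25 against -0.05 and 0.04. Over all genes 4.47% were called in EILP minus flt3+ CMP, 7.14% in EILP minus flt3- CMP and 10.2% in EILP minus DN3. The shares were 6.39% in NK minus CLP, 5.96% in CLP minus LMPP and 3.42% in ETP minus LMPP.

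Between EILP and CLP, Lef1 was the 1 called of 24 other HMG box genes, at -3.05, in a comparison where 9 of 22180 genes were called higher and 72 lower. At an unadjusted p under 0.05, 1 was higher and 4 were lower, with a median of -0.13 against 0.05. Against flt3+ CMP none was called by limma, with 2 higher and 3 lower at an unadjusted p under 0.05, and against flt3- CMP the ribosomal RNA transcription factor gene Ubtf was lower, at -1.59, with medians of -0.11 and -0.09 against -0.01 and -0.02. Against DN3, Sox6 at 1.25 was higher and Lef1 at -4.37, Ubtf at -1.31, Sox4 at -1.14 and Smarce1 at -0.96 were lower in EILP, with a median of -0.41 against -0.04. From LMPP to CLP, Lef1 at 3.26, Sox6 at 1.03 and Hmgb2 at 0.55 rose, and Sox4 at -1.31 and Tcf7l2 at -1.14 fell, with a median of 0.08 against -0.05. In NK minus CLP, Sox4 at -1.33 and Tcf7l2 at -0.93 were lower, with a median of -0.14 against 0.09, and in ETP minus LMPP the chromatin protein gene Hmgb2 was lower, at -1.39, with a median of -0.05 against 0.04. Over all genes 4.47% were called in EILP minus flt3+ CMP, 7.14% in EILP minus flt3- CMP and 10.2% in EILP minus DN3. The shares were 6.39% in NK minus CLP, 5.96% in CLP minus LMPP and 3.42% in ETP minus LMPP. Counts of 1 or 2 of 24 therefore say little about this list. Tcf7, the gene of TCF-1, was not analysed here.

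The HBO1 acetyltransferase complex, a partner of Tox in exhausted T cells, had 10 genes measured. Between EILP and CLP, where 0.365% of all genes were called, none was called by limma and 4 were lower at an unadjusted p under 0.05. The median was -0.40 against 0.05 over all genes. Jade3, a scaffold subunit gene, was lower in EILP than in flt3+ CMP (-1.40), flt3- CMP (-1.66) and DN3 (-1.51), and Jade2 was lower than in DN3 (-1.57), with medians of -0.15, -0.40 and -0.27 against -0.01, -0.02 and -0.04. In NK minus CLP, Meaf6 at -0.72 and Brpf1 at -0.64 were lower, with a median of -0.37 against 0.09. Brpf1 was higher in CLP than in LMPP by 0.70, with a median of 0.14 against -0.05. In ETP minus LMPP none was called by limma, with 1 higher and 1 lower at an unadjusted p under 0.05 and a median of -0.16 against 0.04. The shares of all genes called were 4.47% in EILP minus flt3+ CMP, 7.14% in EILP minus flt3- CMP and 10.2% in EILP minus DN3. They were 6.39% in NK minus CLP, 5.96% in CLP minus LMPP and 3.42% in ETP minus LMPP. Counts this low say little about a list of 10. Over all 6 lists and the 7 comparisons, no call changed direction under centring or quantile normalization, but calls of Ets1 (CLP minus LMPP and NK minus CLP), Rora, Hmgb2 (CLP minus LMPP), Lag3 (CLP minus LMPP), Nfatc3, Tcf7l2 and Entpd1 (NK minus CLP), Brpf1 and Meaf6 (NK minus CLP), and Jade3 (flt3+ CMP) were lost under 1 or both.

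The genes whose population means ran most like those of Tox were found by Pearson correlation over the 9 means, among 4995 genes whose own means spanned at least 1 log2 unit. The 8 highest were Arhgap27os3 at 0.928, a transcript named for lying opposite Arhgap27, Gata3 at 0.901, a factor required for T cells and innate lymphoid cells, and Orc4 at 0.894, a subunit of the replication origin recognition complex. Tbc1d10c, which encodes an inhibitor of calcineurin and Ras, followed at 0.858, then the ubiquitin ligase gene Peli1 at 0.844, Nlrc3 at 0.836, the lysophospholipid receptor gene P2ry10 at 0.824 and St8sia1, a ganglioside synthase gene, at 0.818. Over the 17 arrays the correlations of these 8 were 0.744 to 0.873, and over the 7 marrow means 0.583 to 0.895. All points share the same arrays, and the 2 thymus populations are high in Tox, so these values describe the arrays and carry no test.

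Gata3 stood at 6.39 in DN3, 5.56 in ETP, 5.26 in NK and 5.10 in EILP, and at 4.25 to 4.69 in the 5 other populations, close to or below the median of all values in most. Its EILP minus CLP difference was 0.85 ± 0.46 (limma adjusted p = 0.67). The likeness thus rests on the values of the 9 means together and not on a called difference between EILP and CLP. None of the 8 genes was called in that comparison by limma, with differences of 0.11 (Nlrc3) to 0.93 (P2ry10). Orc4 ranged from 7.75 in flt3- CMP to 8.80 in ETP, and P2ry10 from 2.77 in flt3- CMP to 7.55 in DN3, with NK at 6.73 and EILP at 4.13.

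**Figure D5:**
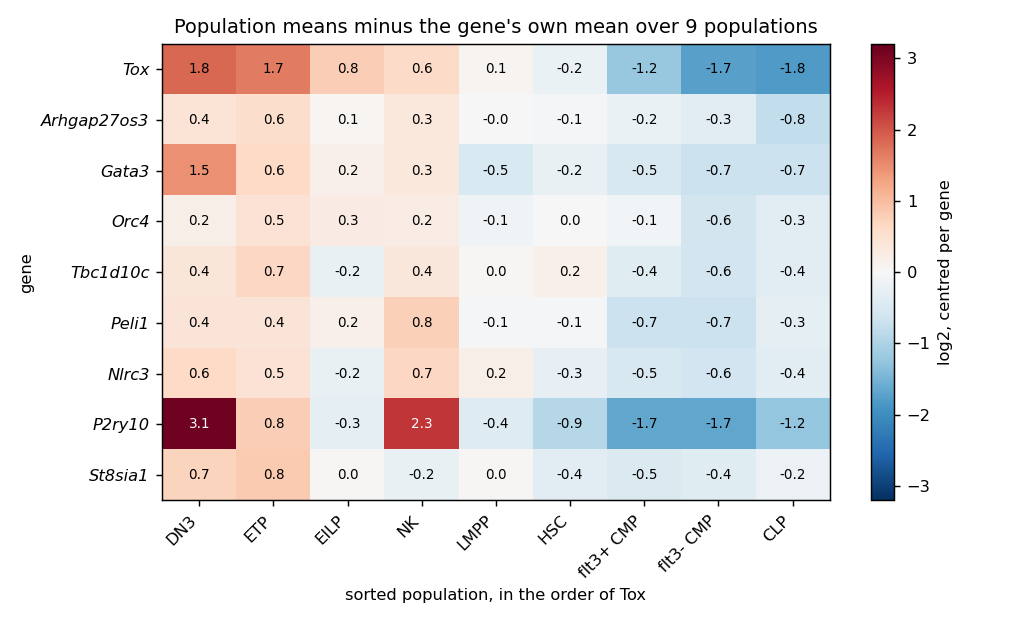
Population means of Tox and of the 8 genes most correlated with it, each minus the gene's own mean over the 9 populations (log2), in the order of Tox. In every row the flt3- CMP cell is below the gene's own mean and the ETP cell above it, and the EILP cell is below it for Tbc1d10c, Nlrc3 and P2ry10.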

How the data were processed

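The authors deposited a table of log2 values for 41345 probe sets in 17 arrays, a unit read from the size of the values. Per the submitters' processing notes they came from Affymetrix Expression Console, whose algorithm and version the sources used here do not give. Array scanner files were not analysed here. Probe sets with 1 gene symbol (23521) were kept, 1814 with several and 16010 with none were left out, and for 1082 genes the probe set with the highest mean was used, leaving 22180 genes.

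Differences were fitted with limma 3.58.1 in R 4.3.3 (1 mean per population, 8 residual and 5.33 prior degrees of freedom), two-sided, with Benjamini-Hochberg adjustment over all genes within each comparison at 0.05. Errors are standard errors and intervals cover 95% before adjustment. The script was tested on simulated data. Over all genes the median SE was 0.24 in EILP comparisons and 0.20 in the others.

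Named genes are the 4 members, list members called where a member was called, and the 8 genes nearest Tox, leaving out predicted genes, small RNA genes, pseudogenes and receptor segments. Members and lists were chosen with earlier results of these data known. Replicate numbers do not pair the samples: over 28 pairs of populations, same-numbered deviations correlated at -0.07 to 0.09. Alternatives were centring, quantile normalization, a filter on dim genes, averaging probe sets of a gene, testing every probe set, another variance model, a replicate block, subsets of the arrays, and leaving out each array. Protein and Tox promoter sequences were not used here.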

Additional observations from a re-analysis of the deposited data

How the results depend on the processing

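Over 9 alternatives and 17 arrays left out in turn, 1499 of 1540 recomputed values of the 4 genes kept their side of the threshold. Of the rest, 37 lost a call and 4 gained one, and no difference called in either fit changed direction. Differences not called could change sign: Tox in DN3 minus ETP was 0.17 in the reported fit and -0.30 without ETP replicate 2. Leaving out the EILP array removes its comparisons, so these were not recomputed without it. For Tox in EILP minus DN3, the call was lost with quantile normalization (-0.94), with all probe sets (-1.05) and with a trended robust variance (-1.05), and leaving out arrays gave -1.14 to -0.96. For Tox in EILP minus HSC a call was gained with marrow arrays alone (1.02), with 0.95 to 1.08 over arrays left out, and EILP minus ETP ran from -1.35 to -0.40. For Tox3 in EILP minus DN3, the call was lost with all probe sets (-0.80) and within 1 side of the sex-linked split (-0.80), and arrays left out gave -0.98 to -0.61. The Tox3 F test gave an adjusted p of 0.094 with all probe sets and 0.038 to 0.14 over arrays left out. The cause of these changes was not tested. Testing all probe sets adjusts over more features, and leaving out an array leaves fewer samples. Calls were gained as well as lost with fewer samples, as for Tox in EILP minus HSC without either ETP array.

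With the replicate block, which could not be fitted for EILP because it carries no number, CLP minus LMPP for Tox was -1.91 and no call of the 4 genes changed. It changed the count of called genes by over 1.5 times only for flt3+ CMP minus flt3- CMP.

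Counts of all genes called fell by over 1.5 times without 1 of the arrays compared: EILP minus HSC from 1121 to 649 (without HSC replicate 1), minus LMPP from 864 to 477 (LMPP replicate 2), minus flt3+ CMP from 991 to 577 (replicate 2; 635 without replicate 1), minus flt3- CMP from 1584 to 766 and 789, and minus CLP from 81 to 48 (CLP replicate 2), or 22 within 1 side of the split. LMPP minus HSC fell from 133 to 57, 66 and 69 (HSC replicate 1 and each LMPP array), CLP minus LMPP from 1321 to between 636 and 749, NK minus LMPP from 1491 to 810, 845 and 988, NK minus CLP from 1418 to 740 and 748, ETP minus LMPP from 759 to 447 and 472, and DN3 minus ETP from 1936 to 1115 and 1201. The 24 of flt3+ CMP minus flt3- CMP ranged from 1 to 37, with 9 after centring, 11 after quantile normalization, 1 with all probe sets, 6 with the replicate block and 1 within 1 side of the split. Signal near the dim end may limit the size of differences for Tox3 and for Tox in CLP, which was not tested.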
